A study of Drosophila melanogaster with 32 samples.

Results

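The odorant-binding protein (Obp) genes of Drosophila melanogaster were followed across 8 lines and both sexes of flies 42 days old. Members were all genes whose symbol starts with Obp, plus lush, that have a probe set with 1 gene on the Affymetrix Drosophila Genome 2.0 array, and a gene with several such probe sets was read from the one brightest on average (log2 signal). This gave 48 genes, out of 11982 genes with 1 symbol. Of these, 32 had a signal of at least 50 on both arrays of at least 1 line and sex and were tested, and 16 did not and were not tested. Among all 11982 genes, 10253 had a probe set that passed this filter. Obp83a, and the genes that share a probe set (Obp50b with Obp50c, and Obp57d with Cpr57A), are not among the 48.

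The study screened homozygous insertions of the P element P{GT1} for longer life and profiled 7 of the long-lived lines beside their control. All 8 lines share the w1118 Canton S F background. Control_F is the co-isogenic control without a screened insertion. The insertion lines are pyd (upstream of polychaetoid), mub (in an intron of mushroom-body expressed), crol (in an exon of crooked legs), CG10990 (in an intron), CG9238 (upstream), esg (downstream of escargot) and BG00817, named by its insertion because the site was not sequenced. Each line rests on 1 insertion event. The flies were virgins, kept by sex, and RNA came from pools of whole flies, 2 pools and so 2 arrays for each line and sex (32 arrays). The sources do not say whether the 2 pools of a line and sex were grown apart, so the spread behind each p-value is that of these samples and may be technical. In whole flies, fewer cells of a type and less RNA per cell cannot be told apart.

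Odorant-binding proteins are small secreted proteins that carry hydrophobic ligands. The best known are made by support cells of the antennal sensilla and fill the fluid around olfactory neurons, where lush is needed to detect the male pheromone cVA. Other family members are made in taste organs, in glia, in fat body or in the male reproductive tract, from which they pass to females in seminal fluid. Most Obp genes arose by tandem duplication and sit in short runs along the chromosomes.

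The arrays matched their labels of sex, and their labels of line were not checked. Eggshell and oocyte genes were summed to 29949 to 84214 on female arrays and 69.7 to 550.1 on male arrays, while accessory gland genes were summed to 159.6 to 280.1 in females and 39824 to 57942 in males. Of the antennal markers, Orco, Snmp1 and a10 passed the filter and Ir8a, Ir25a and Ir76b did not. The median signal of an array was 117 to 143 in males and 49.2 to 72.3 in females, although every array was scaled to the same trimmed mean. Replicate arrays correlated at r = 0.964 to 0.985 across probe sets. RNA integrity was read as the log2 ratio of 3′ over 5′ probe sets for the array's control transcripts. It was 0.858 to 1.003 on the 4 Control_F arrays and averaged 1.15 to 1.51 in the insertion lines. Single arrays of the insertion lines ran from 0.748 to 1.674, both in crol males, and so overlapped the Control_F arrays. The part of RNA integrity in the differences between lines was not tested.

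The 16 genes that did not pass lay mainly on chromosome arm 2R, which held 12 of them and 14 of the 32 that passed. All 6 members on the X chromosome and both on 2L passed. Signals of 14 of the 16 were under 50 on every array, with a highest value of 40.4 (Obp93a). Obp50d reached 52.7 on 1 male array and Obp83g reached 71.9, with 3 male arrays above 50. Members of the Plus-C class, which carry extra cysteines, were 10 of the 16 (Obp46a, Obp47b, Obp50a, Obp50d, Obp50e, Obp58b, Obp58c, Obp58d, Obp85a and Obp93a), and Obp49a was the single Plus-C gene of 11 that passed. This class was looked at after its values were seen. The remaining genes under the filter were Obp47a, Obp56b, Obp56c, Obp57e, Obp73a and Obp83g.

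Males and females differed at most members. By limma's moderated test at an adjusted p of 0.001, 29 of 32 members (90.6%) differed, against 84.2% of all 12518 probe sets tested, so the share is close to the background. Direction was less even. Higher signal in males was called for 25 members (78.1%, against 46.2% of all probe sets) and higher signal in females for 4 (12.5%, against 37.9%). Male minus female log2 signal had a median of 1.42 over the 32 members and 0.20 over all probe sets. Obp22a, Obp51a, Obp56f, Obp56h and Obp56i had all 16 female arrays under 50 and passed the filter through males alone. Obp19c had all 16 male arrays under 50 and passed through females alone. The filter fixed the direction of such genes, and the shares and medians, of members and of all probe sets, include such cases. Signals of 17 members had no overlap at all between 16 male and 16 female arrays (53.1%, against 52.1% of all probe sets).

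**Figure D1:**
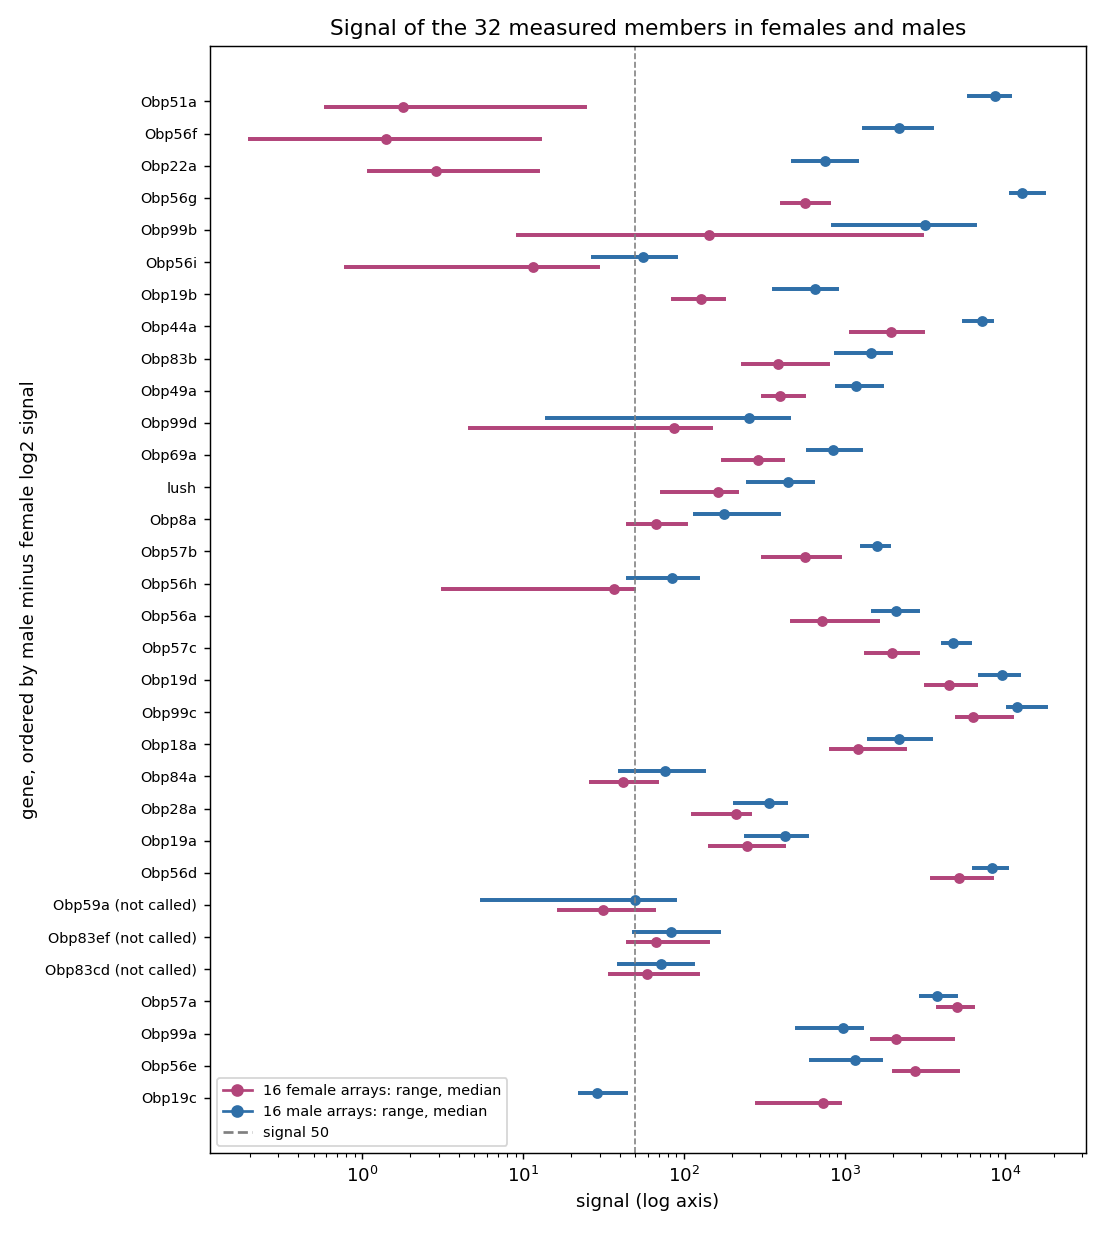
Signal (log axis) of the 32 members that passed the filter, with lines for the lowest to highest of 16 female or 16 male arrays and points for their medians, genes ordered by the male minus female difference. Most members lie further right in males; Obp19c, Obp56e, Obp99a and Obp57a lie further right in females, and values left of the dashed line at 50 have no order.

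Of the 4 groups of members, the seminal fluid group had the largest median sex difference. It holds 7 genes known as seminal proteins (Obp8a, Obp22a, Obp51a, Obp56e, Obp56f, Obp56g and Obp56i). Of these, 6 were higher in males, 1 was higher in females, and the median difference was 4.52, with signals under 50 taken as read. Obp22a, Obp51a, Obp56f and Obp56i passed the filter through males alone, so the rank of the group was partly fixed by the filter. Obp51a ranged from 5971 through a median of 8631 to 10715 on male arrays and stayed between 0.6 and 24.3 on female arrays, all of them under 50. Obp56f ranged from 1325 to 3487 in males and from 0.2 to 12.8 in females, and Obp22a from 478.8 to 1195 and from 1.1 to 12.4. With female signals raised to 50, these differences were at least 175-fold, 43.2-fold and 15.3-fold (adjusted p = 3.1e-14, 4.5e-13 and 1.4e-16, limma).

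Obp56g, another of these seminal proteins, was measured in both sexes. Its signal was 10802 to 17421 in males (median 12660.0) and 405.5 to 801.3 in females (median 565.3). The difference was 4.52 ± 0.06 (SE) on the log2 scale or 22.9-fold (adjusted p = 1.3e-21). Obp8a was at least 2.86-fold higher in males. Obp56i was low throughout, at 27.4 to 90.1 in males and under 50 on all 16 female arrays, which bounds its difference at 1.14-fold. Accessory gland markers (9 of 9), ejaculatory duct and bulb markers (3 of 3) and testis markers (9 of 9) were also called higher in males, with most of their female arrays under 50. Acp95EF and mia were above 50 on every array. Most of the rest passed the filter through males alone, so their direction was fixed by it. The testis marker aly did not pass and is not counted.

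Obp56e ran the other way from the rest of that group. Female arrays ranged from 2018 through a median of 2755 to 5082, and male arrays from 622.4 through 1159 to 1681. No male array reached the lowest female array, and the difference was 2.58-fold in favour of females (1.37 ± 0.06 on the log2 scale, adjusted p = 2e-14). On the chromosome it lies between Obp56d and Obp56f with no other protein-coding gene between them. Obp56d was 1.59-fold higher in males (adjusted p = 2.8e-10) and Obp56f was at least 43.2-fold higher in males, so that 3 genes in a row differed in size or direction.

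Obp19c had a still sharper female pattern. Its 16 female arrays lay between 287.0 and 938.2 (median 736.1), and all 16 male arrays lay between 22.7 and 43.6, under the floor of 50. The difference was at least 12.5-fold (adjusted p = 1.5e-18). Both flanking genes of its run on the X chromosome, Obp19b and Obp19d, and Obp19a at the end of the run, were higher in males, by 5.2-fold, 2.06-fold and 1.65-fold. A second Obp19c probe set stayed under 50 on all arrays (highest 39.4), so the female signal rests on 1 probe set.

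Across the family, 35 genes of the annotation form 9 runs with at most 2 other protein-coding genes between neighbours, counting genes not measured here. Of the 5 runs with 2 or more tested genes, 3 held both genes higher in males and genes higher in females: Obp19a to Obp19d, Obp56a to Obp56i, and Obp57a to Obp57c. Within the last of these, Obp57b (2.82-fold) and Obp57c (2.42-fold) were higher in males with no overlap, while Obp57a was 1.31-fold higher in females (0.39 on the log2 scale, adjusted p = 1.1e-06) with overlapping arrays of 3801 to 6309 in females and 2968 to 4960 in males.

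Antennal genes were mostly higher in males, by smaller amounts. All 9 listed genes with a probe set passed the filter; 7 were called higher in males, 1 higher in females, and the median difference was 0.80. lush ranged from 249.8 through 444.2 to 634.6 in males and from 73.6 through 163.7 to 214.1 in females, a 2.86-fold difference with no overlap (1.52 ± 0.07, adjusted p = 2.3e-13). Obp83b, a protein of the pheromone-sensing trichoid sensilla, was 3.6-fold higher in males and Obp69a, a modulator of the response to cVA, was 2.92-fold higher, also without overlap. Obp19a (1.65-fold), Obp28a (1.74-fold), Obp56d (1.59-fold) and Obp84a (at least 1.44-fold) were higher in males with overlapping arrays.

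Obp99a was the antennal gene higher in females, with 1490 to 4754 on female arrays and 506.9 to 1284 on male arrays (2.38-fold, adjusted p = 8e-10). Obp59a, known for the sensing of humidity, was not called (0.48 ± 0.25, adjusted p = 0.083), and 23 of its 32 arrays were under 50. Other head transcripts also read higher in males on these arrays. Antennal markers (3 of 3), glial markers (4 of 4) and neuronal markers (3 of 3) were called higher in males, with medians of 1.37, 1.26 and 1.81, and their part in the higher male signal of antennal members was not tested. The neuronal marker brp had all of its female arrays under 50 and passed the filter through males alone.

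Of the taste genes, Obp49a, which binds bitter compounds at sugar-sensing neurons, was 3-fold higher in males (893 to 1705 against 312.5 to 558.9), and Obp19b was 5.2-fold higher (365.7 to 900.1 against 86.0 to 179.1). Neither overlapped between the sexes. Among the others, Obp44a, which is made by glia of the brain, was 3.81-fold higher in males. Obp56a (2.63-fold), Obp99c (1.87-fold) and Obp18a (1.77-fold) were also higher there, and Obp56h, linked to male mating behaviour, was at least 1.61-fold higher, with all 16 female arrays under 50. Obp83cd (0.16 ± 0.13, adjusted p = 0.25) and Obp83ef (0.22 ± 0.12, adjusted p = 0.11), proteins that join a pair of binding domains in 1 chain, were not called.

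Scaling mattered for the weaker sex differences. Quantile normalization moved the median of all probe sets from 0.20 to -0.03 and gave 23 members higher in males and 6 higher in females. Under it Obp83cd and Obp83ef were called higher in females (-1.0 and -0.89), Obp84a turned from 0.81 to -0.41, and Obp56h fell to 0.20 and was no longer called (adjusted p = 0.45). Centring each array on its median moved the median of all probe sets to 0.42 and gave 25 members higher in males and 3 in females, without Obp57a.

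Obp99b, male-biased in the fat body of the head, had the widest spread of any member called. Its male arrays ranged from 843.1 to 6471 and its female arrays from 9.3 through a median of 144.5 to 3027. Replicate pools of females disagreed in several lines: 162.0 and 3027 in mub, 1107 and 88.6 in pyd, 51.2 and 528.3 in crol, 566.5 and 86.9 in esg, and 164.0 and 9.3 in CG9238. The highest female array, mub replicate 2, lay within the male range, and the cause of this was not tested. Mean signals were 3175 in males and 405.5 in females. Mean log2 signal was 11.46 in males and 7.30 in females, a difference of 4.16 ± 0.51 (adjusted p = 3e-07), or 4.01 with the 1 female array under 50 raised to 50, and no difference between lines was called (adjusted p = 0.41).

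**Figure D2:**
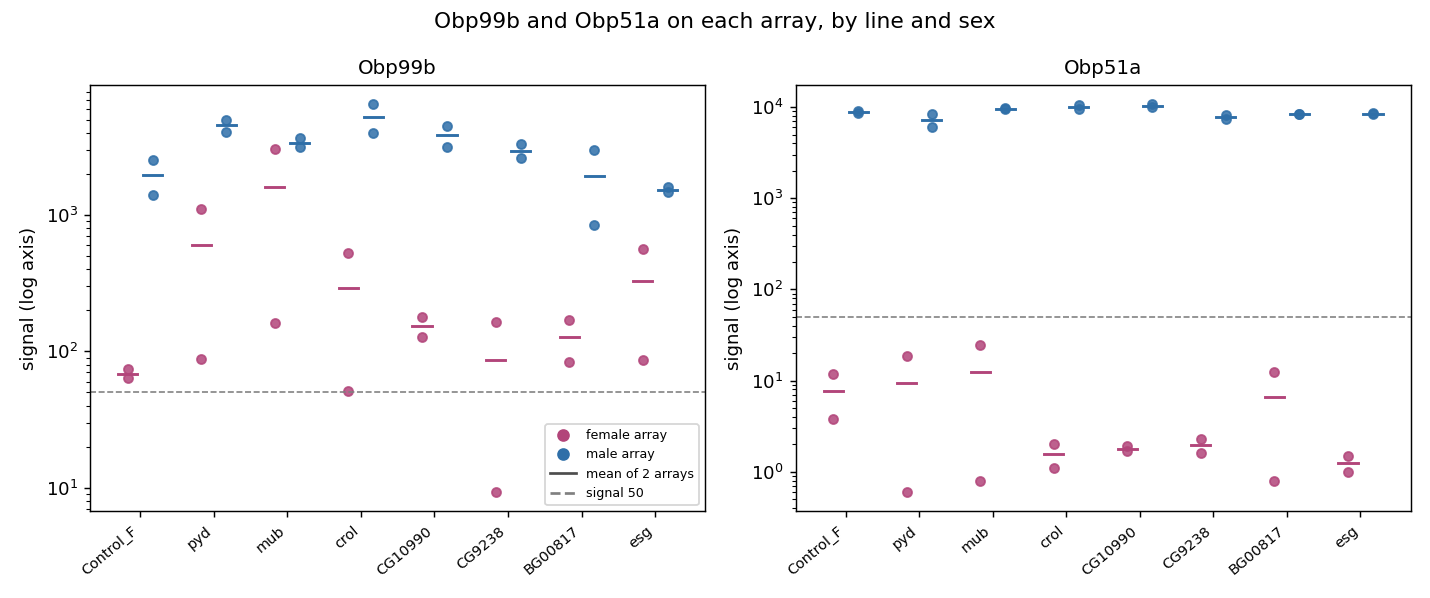
Signal (log axis) of Obp99b and Obp51a on each array by line, females and males apart, with bars for the mean of 2 arrays and a dashed line at 50. Female pools of mub, pyd, crol, esg and CG9238 are far apart for Obp99b, while for Obp51a all 16 female arrays lie under 50 and all 16 male arrays lie between 5971 and 10715.

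Among the 8 lines, 7 of 32 members (21.9%) varied at an adjusted p of 0.001 in the test of line over both sexes, against 10.1% of all probe sets. They were Obp99d (adjusted p = 6.1e-09), Obp8a (2.7e-06), Obp56e (2e-05), Obp44a (2.6e-05), lush (0.00018), Obp99c (0.00031) and Obp19d (0.00092). Within females Obp99d alone was called (3.12%, against 1.17%), and within males Obp8a and Obp99d (6.25%, against 1.69%). The test of line by sex called 1 member, Obp44a (3.12%, against 0.591%). At an adjusted p of 0.05, 11 members passed that test (34.4%, against 14.6%): Obp19a, Obp19c, Obp19d, Obp44a, Obp56a, Obp56d, Obp56e, Obp57b, Obp57c, Obp83b and Obp99a.

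Against Control_F, at an adjusted p of 0.05 on the 8 arrays of each line and the control, members called numbered 6 in mub (18.8%, against 12.7% of all probe sets), 5 in BG00817 (15.6%, against 8.4%), 4 in CG9238 (12.5%, against 4.54%) and 2 in esg (6.25%, against 5.85%). None was called by limma in pyd (background 2.09%), crol (2.45%) or CG10990 (1.41%). In those lines 9, 11 and 9 members had an unadjusted p under 0.05 (beside 16.9%, 21.6% and 14.8% of all probe sets), and an analysis of variance on untransformed signal, adjusted by Benjamini-Hochberg, called 1, 2 and 1. In all, 13 members were called in at least 1 line (40.6%, against 23.8%). By direction, mub had 5 members higher and 1 lower (6.83% and 5.88% of all probe sets), BG00817 had 2 and 3 (4.07% and 4.34%), CG9238 had 2 and 2 (1.53% and 3%) and esg had 2 higher (3.19%). The 7 comparisons share the same 4 control arrays, so their calls are not independent. The median line difference of the 32 members lay between -0.16 (CG9238) and 0.16 (esg), beside -0.05 to -0.01 over all probe sets.

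Tests against the control were also run within each sex. In females they called 10 in mub (20.4% of all probe sets), Obp83b in pyd (1.73%), Obp19c in crol (2.41%), Obp22a and Obp83b in CG9238 (3.04%), lush and Obp19a in BG00817 (3.92%), and Obp22a and Obp44a in esg (7.37%). Both Obp22a calls compare signals under 50. In males they called Obp8a in CG9238 (1.63%) and Obp19b in BG00817 (3.05%). Markers of other head cells moved in mub females too. The 3 neuronal markers (elav, nSyb and brp) summed to 334.1 to 452.5 there against 189.4 to 198.8 in control females, with a median difference of 0.91 and with brp under 50 on all 16 female arrays. The 4 glial markers (repo, moody, Gs2 and alrm) summed to 7454 to 8370 against 4867 to 5736, with a median difference of 0.39. Over both sexes none of the neuronal and 1 of the glial markers (repo) was called in mub, and their part in the 10 female calls was not tested.

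**Figure D3:**
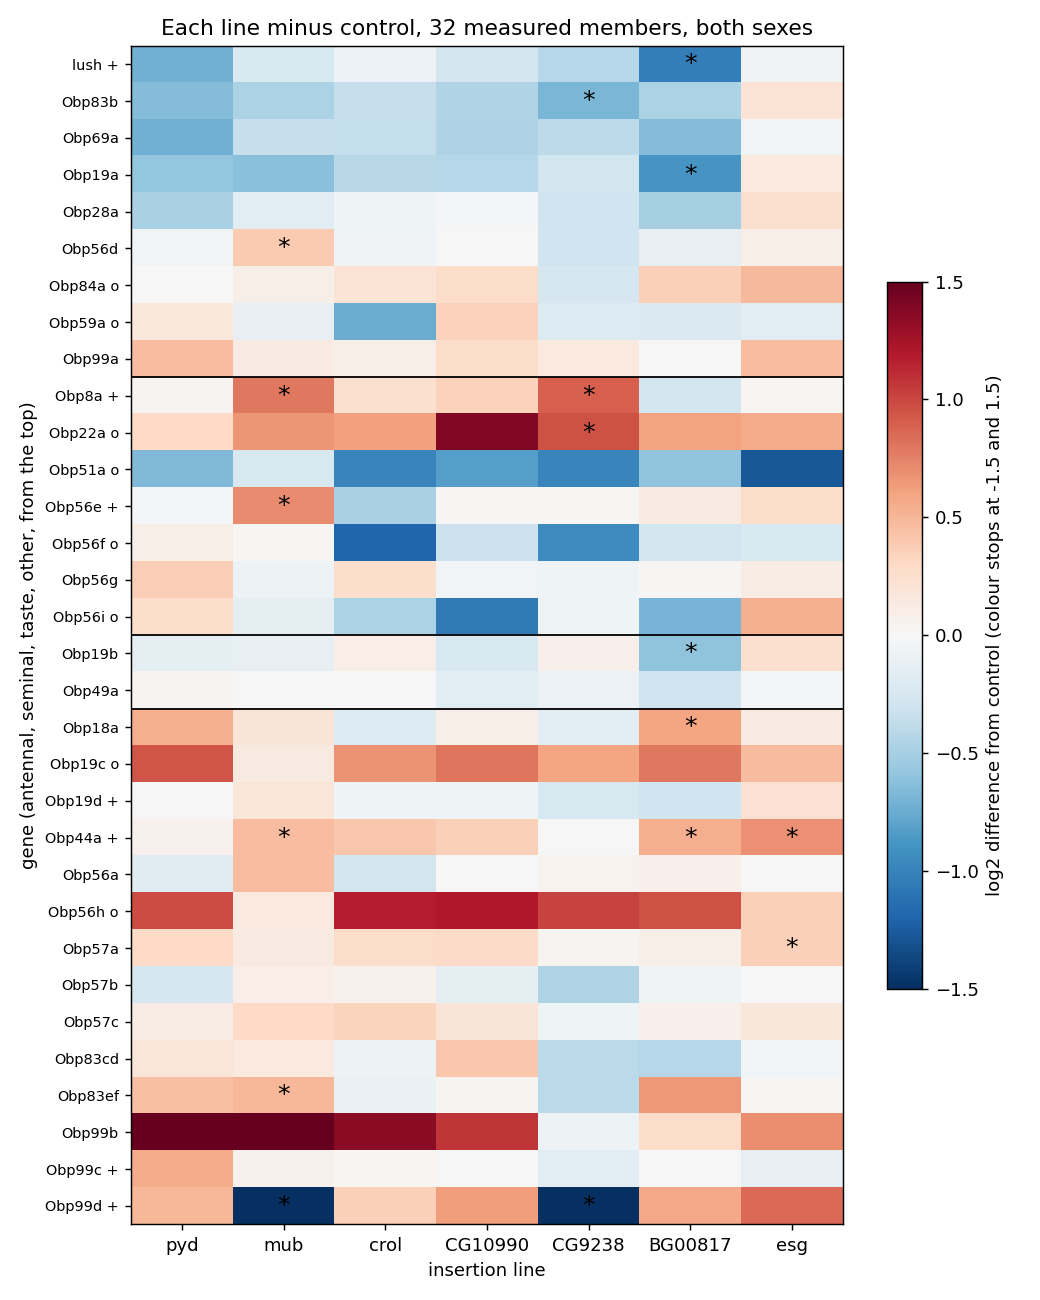
Log2 difference from Control_F, over both sexes, of 32 members (rows, grouped as antennal, seminal, taste and other) in 7 insertion lines (columns), with an asterisk where the adjusted p was at most 0.05, a plus at genes called by the test of all lines and an o at genes with at least 8 arrays of 1 sex under a signal of 50, whose colours have no reliable order. The deepest called cells are Obp99d in mub and CG9238, at -3.43 and -2.60.

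Obp99d was nearly lost in 2 of the lines. Female arrays read 91.8 and 36.6 in Control_F, 83.9 and 89.0 in pyd, 73.6 and 121.2 in crol, 98.6 and 106.8 in CG10990, 97.2 and 60.4 in BG00817, 148.7 and 137.8 in esg, but 4.7 and 5.7 in mub and 20.3 and 13.4 in CG9238. Male arrays read 236.3 and 219.9 in Control_F, 263.3 and 355.1 in pyd, 217.1 and 244.5 in crol, 309.3 and 303.7 in CG10990, 454.3 and 317.1 in BG00817, 327.6 and 273.2 in esg, but 29.9 and 16.1 in mub and 14.2 and 33.8 in CG9238. All 8 arrays of mub and CG9238 were under 50, and 23 of the other 24 arrays were above it.

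In males the fall was at least 2.19 on the log2 scale in each of these 2 lines. The limma test within males did not call it (adjusted p = 0.10 in mub and 0.068 in CG9238). In females, where a control array was itself under 50, the bound was 0.21. The limma test within females called it in mub (adjusted p = 0.014) but not in CG9238 (0.18). Over both sexes the fitted values were -3.43 ± 0.35 in mub (adjusted p = 0.012) and -2.60 ± 0.41 in CG9238 (adjusted p = 0.033), and these sizes depend on signals under the floor. Its nearest Obp neighbours, with 1 other protein-coding gene on each side, are Obp99c and Obp99b. Obp99c differed from the control by 0.07 ± 0.09 in mub and -0.16 ± 0.09 in CG9238, neither of them called. Obp99b differed by 2.10 ± 0.91 in mub and -0.08 ± 0.90 in CG9238, also not called (adjusted p = 0.17 and 0.98).

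Obp8a, a seminal protein gene on the X chromosome, was highest in the same 2 lines. Male arrays read 169.3 and 153.4 in Control_F, 323.5 and 277.1 in mub and 391.7 and 385.5 in CG9238. The other lines read 190.6 and 168.8 in pyd, 169.3 and 192.0 in crol, 188.7 and 218.7 in CG10990, 122.7 and 117.9 in BG00817 and 158.5 and 152.4 in esg. Males of mub and CG9238 thus lay above all other male arrays, and those of BG00817 below them.

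Females showed a smaller difference in the same direction, with 62.6 and 54.9 in Control_F, 104.0 and 86.1 in mub and 76.6 and 92.5 in CG9238. Over both sexes Obp8a rose by 0.79 ± 0.11 in mub (adjusted p = 0.020) and by 0.90 ± 0.09 in CG9238 (adjusted p = 0.011). In BG00817 the difference of -0.28 ± 0.13 was not called (adjusted p = 0.25). Accessory gland markers, as a list of 9, had median differences of 0.04 in mub males and 0.23 in CG9238 males. They summed to 47026.8 and 48685.1 in mub males and 50912.5 and 55873.5 in CG9238 males, against 43712.9 and 44443.3 in control males. Males of pyd, crol and CG10990 also summed above the control, without a call of Obp8a. Ejaculatory duct and bulb markers summed above the control in males of every insertion line but pyd. The part of these markers in the Obp8a differences was not tested.

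**Figure D4:**
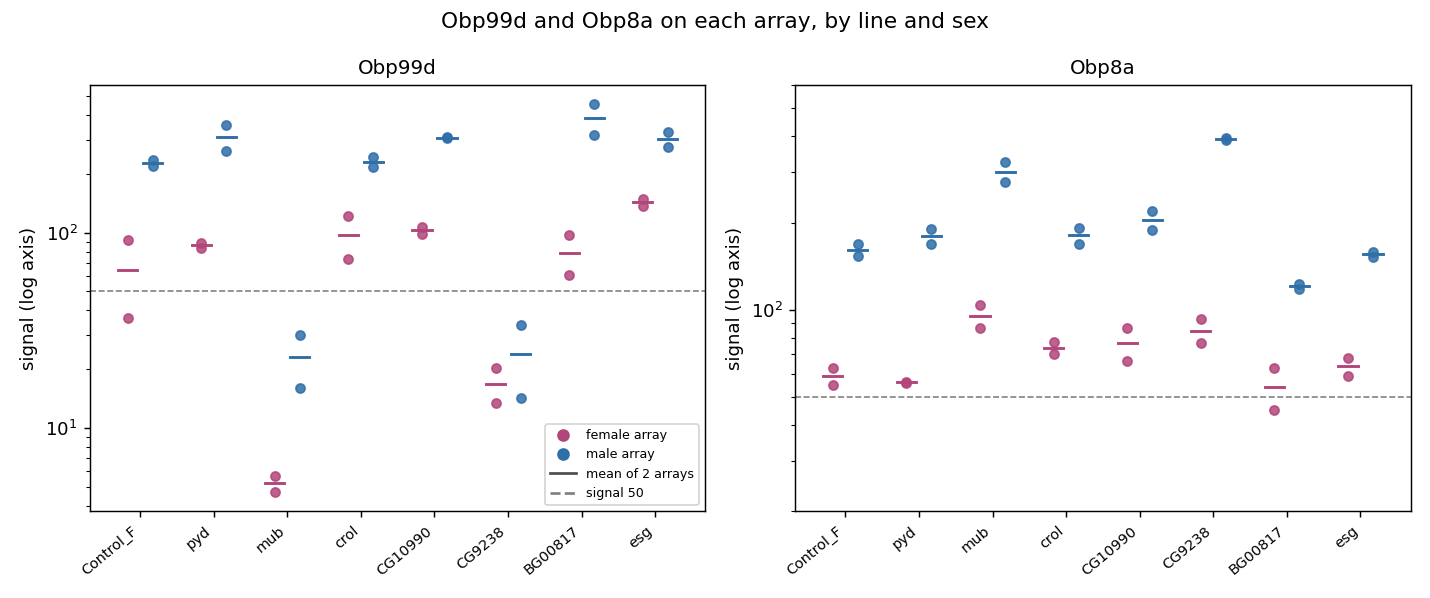
Signal (log axis) of Obp99d and Obp8a on each array by line, females and males apart, with bars for the mean of 2 arrays and a dashed line at 50. For Obp99d the 8 arrays of mub and CG9238 lie under 50, and for Obp8a the male arrays of those lines (277.1 to 391.7) lie above all other male arrays (117.9 to 218.7).

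Obp56e moved in different ways in females and males. Female arrays read 2478 and 2018 in Control_F and 4671 and 5082 in mub, the highest of all; BG00817 (3599 and 3480), pyd (3688 and 2847) and esg (3314 and 2969) also lay above both controls. In males crol was lowest, with 632.5 and 622.4 against 1504 and 1169 in Control_F, and pyd (927.1 and 840.2) and BG00817 (971.8 and 1022) also lay below both controls. So pyd and BG00817 lay above the control in females and below it in males.

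Over both sexes Obp56e was 0.71 ± 0.12 higher in mub (adjusted p = 0.027), from 1.12 ± 0.17 in females (adjusted p = 0.016) and 0.31 ± 0.17 in males (adjusted p = 0.55). The crol males differed by -1.08 ± 0.17, which was not called (adjusted p = 0.064). The line by sex test gave an adjusted p of 0.0033, above the 0.001 used here. The neighbouring Obp56d rose in mub as well (0.39 ± 0.09, adjusted p = 0.044), with 7719 and 8301 on the mub female arrays against 5351 and 4453 in the control, and 9613 and 9585 against 8946 and 9503 in males.

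Obp44a varied more widely among lines in females. There the control read 1497 and 1354, and esg (3075 and 2725), mub (2614 and 2349), BG00817 (2077 and 2513), crol (2015 and 1985) and CG10990 (1897 and 1738) lay above it, while pyd (1096 and 1358) and CG9238 (1149 and 1326) did not separate from it. Male arrays ran from 5490.0 and 6132 in Control_F to 8232 in BG00817. In every insertion line but mub, both male arrays lay above both control males. Male differences in those lines were 0.23 (CG9238) to 0.41 (BG00817) on the log2 scale, and that of mub was 0.13, with none called. Calls over both sexes were made in esg (0.69 ± 0.08, adjusted p = 0.021), BG00817 (0.54 ± 0.10, adjusted p = 0.035) and mub (0.46 ± 0.08, adjusted p = 0.031).

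In esg the female difference of Obp44a was 1.02 ± 0.11 (adjusted p = 0.021) and the male difference 0.35 ± 0.11 (adjusted p = 0.31). The test of line by sex over all 8 lines was called (adjusted p = 9e-04), but it missed the threshold when any 1 of 31 of the 32 arrays was left out (pyd female replicate 2 being the exception), with an adjusted p of up to 0.003. It was also lost without the filter, with the replicate block and in the analysis of variance on untransformed signal (up to 0.014), and that analysis of variance ended the call of the test of line as well (0.0015). The 4 glial markers moved in females too, with median differences of 0.44 in esg, 0.39 in mub and -0.35 in CG9238. They summed to 6928 to 7829 in esg females against 4867 to 5736 in the control and 4243 to 4692 in CG9238. One of them, repo, was called by the test of line (adjusted p = 0.00055), and the part of these markers in the Obp44a differences was not tested.

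lush was lowest in BG00817 in females. Female arrays there read 73.6 and 96.4 against 201.0 and 175.4 in Control_F, and male arrays 253.2 and 339.4 against 559 and 550.2. In pyd, females read 114.9 and 144.7 and males 357.5 and 249.8. Both lines lay below both control arrays in each sex, and the lowest array of all males belonged to pyd.

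The difference of lush was -1.04 ± 0.14 in BG00817 (adjusted p = 0.014) and -0.72 ± 0.16 in pyd, not called (adjusted p = 0.10). In esg it was -0.05 ± 0.08 and in crol -0.09 ± 0.08, each not called. The test of line was lost without BG00817 male replicate 1 or BG00817 female replicate 1, with an adjusted p of up to 0.0011. It was also lost under quantile normalization and in the analysis of variance on untransformed signal (up to 0.0038).

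**Figure D5:**
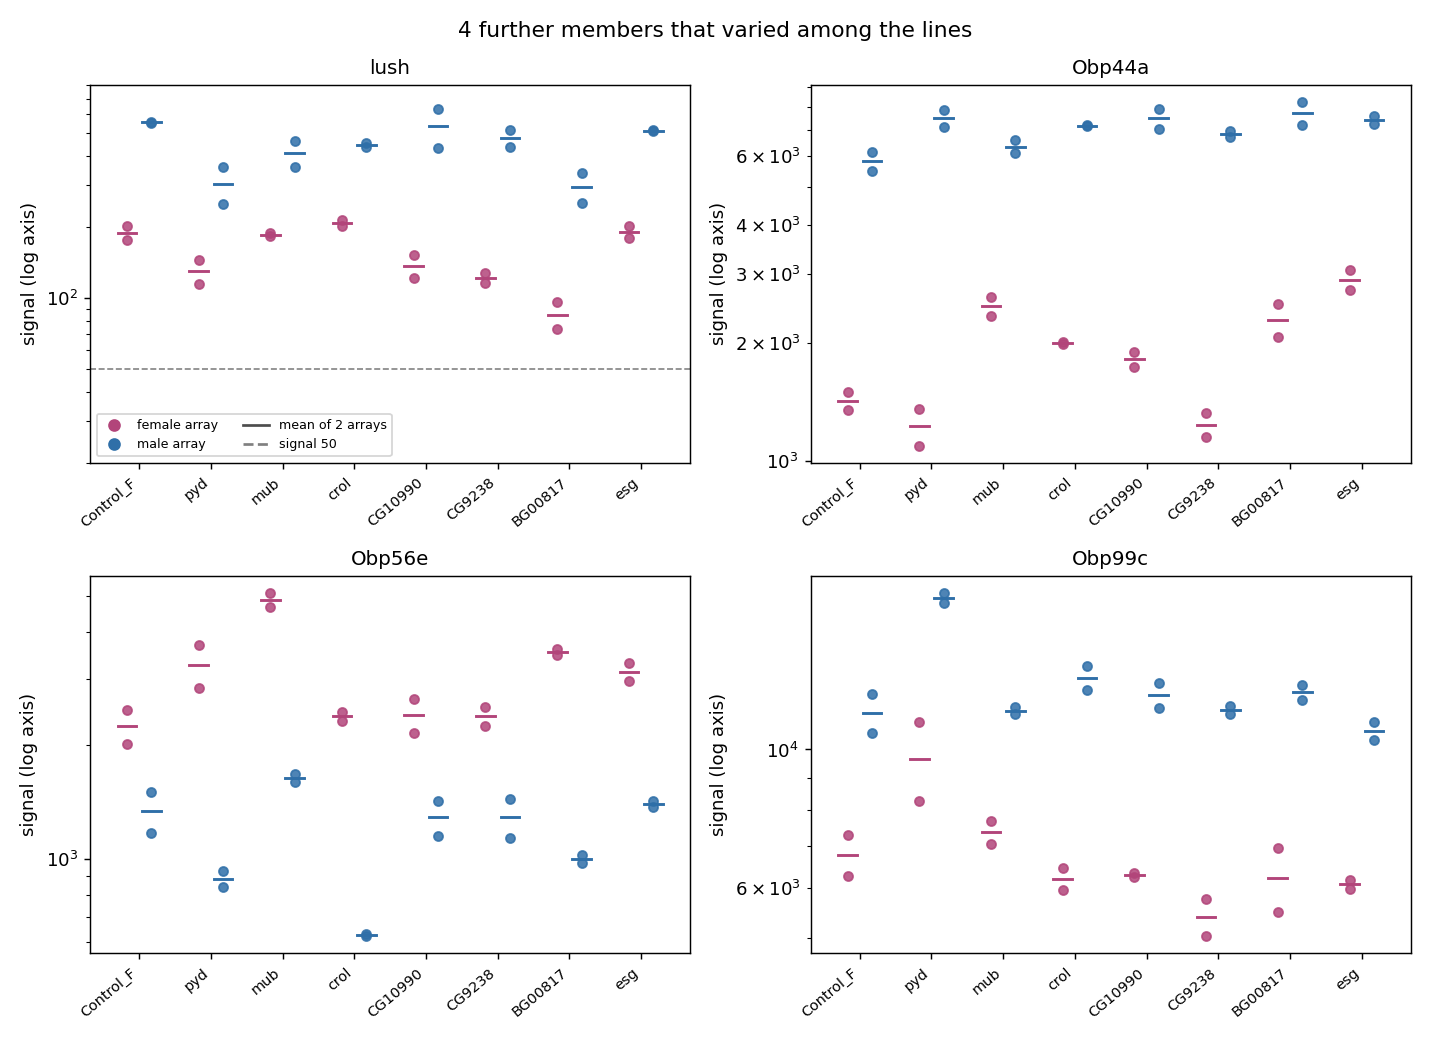
Signal (log axis, a separate range in each panel) of lush, Obp44a, Obp56e and Obp99c on each array by line, females and males apart, with bars for the mean of 2 arrays; the dashed line at 50 is shown for lush. BG00817 and pyd are low for lush, esg and mub females are high for Obp44a, mub females are high and crol males low for Obp56e, and pyd is high for Obp99c in both sexes.

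Obp19a, an antennal gene, was also lower in BG00817, with 152.3 and 181.1 against 350.7 and 285.5 in females and 274.5 and 310.4 against 533.6 and 508.8 in males. The difference of -0.88 ± 0.11 was called (adjusted p = 0.011). In crol the sexes parted: females read 364.9 and 334.7, close to the control, and males 287.2 and 244.3, below every male array of the control. Obp83b showed the same split in crol, with 670.1 and 527.0 in females against 515.7 and 590.7 in the control, and 1029 and 879.4 in males against 1736 and 1590.0. Neither male difference was called (-0.98 ± 0.15, adjusted p = 0.063, for Obp19a, and -0.80 ± 0.17, adjusted p = 0.11, for Obp83b).

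Obp83b was called lower in CG9238 (-0.68 ± 0.08, adjusted p = 0.018), with 249.6 and 287.6 in females and 1325 and 1353 in males. The female difference was -1.04 ± 0.12 (adjusted p = 0.018), and females of pyd, at 283.3 and 239.3, gave -1.08 ± 0.17 (adjusted p = 0.043). Obp69a and Obp28a, the last a protein of basiconic sensilla, had no call in any line. Their differences were -0.72 ± 0.14 and -0.49 ± 0.14 in pyd and -0.65 ± 0.18 and -0.50 ± 0.19 in BG00817.

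As a group, the 9 antennal genes had a median difference of -0.49 in pyd, -0.47 in BG00817, -0.30 in CG9238 and 0.15 in esg. One member was called lower in CG9238 (Obp83b), 2 were called lower in BG00817 (lush and Obp19a), and 1 was called higher in mub (Obp56d). The antennal markers Orco, Snmp1 and a10 had medians of -0.49 in pyd, -0.35 in BG00817, -0.39 in CG9238 and 0.11 in esg and no call in any line. Single markers departed from these medians, with Orco at -0.07 in pyd and -0.14 in CG9238 and Snmp1 at -0.25 in esg. Medians of the markers and of the 9 antennal genes were -0.33 and -0.09 in crol, -0.15 and -0.16 in mub, and -0.10 and -0.02 in CG10990. All 6 antennal markers summed to 540.8 and 598.3 on control female arrays, 328.2 and 413.0 in pyd, 378.1 and 453.0 in BG00817 and 355.4 and 416.2 in CG9238, and Ir8a, Ir25a and Ir76b were among the genes under the filter. On male arrays the sums were 1136.2 and 1268.9 in the control, 998.0 and 1114.4 in pyd, 1024.3 and 1034.0 in BG00817. In CG9238 males they were 962.8 and 1173.4, overlapping the control. The part of these markers in the lower antennal signal was not tested.

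Not all antennal genes shared that pattern. Obp99a differed from the control by 0.46 in both pyd and esg and by 0.00 in BG00817, and Obp56d by -0.04 in pyd and -0.12 in BG00817, with no call. Of 77 other chemosensory genes (odorant, ionotropic and gustatory receptors, Snmp proteins and others), 75 had a probe set and 11 passed the filter: Orco, Or43a, Or43b, Or59b, Or94a, Snmp1, Snmp2, a10, Os-C, CheB38c and ppk23. Of these 11, 7 were higher in males, none was called by the test of line, and 1 was called in a single line (Or94a, lower in BG00817, -0.39, adjusted p = 0.037, with 24 of its 32 arrays under 50). Or59b, Or94a and ppk23 passed the filter through males alone.

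Obp99c had its highest signal in pyd in both sexes. Males of pyd read 17122 and 17803 against 10630.1 and 12280 in Control_F, and females 11069 and 8272 against 7286 and 6266. All other male arrays lay between 10370.3 and 13589. Over both sexes the difference was 0.56 ± 0.14, not called against the control alone (adjusted p = 0.13), and the test of line lost its call without pyd male replicate 1, pyd male replicate 2 or pyd female replicate 1 (adjusted p of up to 0.0026), and under quantile normalization or without the filter (up to 0.0017).

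Obp19d varied in females. Arrays of mub (6507 and 6058) and esg (6566 and 6314) lay above the control (4861 and 4030.1), and arrays of CG9238 (3323 and 3219) below it. The female difference in mub was 0.50 ± 0.12 (adjusted p = 0.042). Male arrays lay between 6930 and 12192, and the lowest was from BG00817 (6930 and 8634). Its test of line was close to the threshold and was lost without any 1 of 24 of the arrays, the exceptions being both Control_F females, both pyd males, pyd female replicate 2, both CG10990 females and BG00817 male replicate 2 (adjusted p of up to 0.0032). Median centring, no filter, the replicate block and the analysis of variance on untransformed signal each ended the call too (up to 0.0031).

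BG00817 also had calls in Obp18a and Obp19b. Obp18a was higher (0.59 ± 0.10, adjusted p = 0.028), with 1402 and 1656 against 901.2 and 1096 in females and 3454 and 3231 against 2360.0 and 2152 in males. Obp19b, a taste gene, was lower (-0.60 ± 0.08, adjusted p = 0.015), with 91.2 and 93.3 against 133.5 and 129.9 in females and 365.7 and 444.0 against 641.8 and 662.3 in males. In both genes the line's arrays did not overlap the control's in either sex.

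Smaller calls completed the set. Obp83ef was higher in mub (0.50 ± 0.10, adjusted p = 0.034), from females at 98.6 and 125.9 against 56.5 and 53.5, while males read 85.6 and 82.0 against 85.6 and 84.2. Obp57a was higher in esg (0.36 ± 0.07, adjusted p = 0.046), with 6309 and 5596 against 4214 and 4479 in females and 3926 and 3855 against 3294 and 3205 in males. Obp22a was called in CG9238, but its females were under 50 in both groups, and males read 783.6 and 807.7 against 748.1 and 554.6 (0.30 on the log2 scale, adjusted p = 0.44), so no fold is given.

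Obp19c, above 50 in females alone, read 386.2 and 287.0 in control females and 363.1 and 302.6 in mub, and every female array of the other 6 lines was higher, from 525.2 in esg to 938.2 in pyd. The difference was called in crol females alone (1.44 ± 0.21, adjusted p = 0.033). The 10 members called in mub females (31.2%, against 20.4%) included Obp56a (1269 and 1619 against 815.6 and 473.5), Obp18a and Obp57c.

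Calls in single lines were often lost when any of several single arrays was left out. Each fit has 4 residual degrees of freedom, and the part of this in the losses was not tested. Leaving out Control_F male replicate 1 or 2, or mub male replicate 2, left no member called in mub. Either Control_F male array did the same in BG00817, and either CG9238 male array in CG9238. In esg the count fell to 0 without either Control_F male array, either esg male array or esg female replicate 1, and it rose to as many as 5 without another array. In pyd, crol and CG10990, where none was called, leaving out a single array gave up to 3, 2 and 3. With all 32 arrays in 1 fit, 14 of the 17 calls of a gene in a line remained, and the exceptions were Obp83ef in mub, Obp22a in CG9238 and Obp57a in esg.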

How the data were processed

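RNA of whole flies was hybridised to Affymetrix Drosophila Genome 2.0 arrays. The authors made the deposited intensity values, 1 linear signal per probe set, with MAS5 (version not given); the mean of every array, trimmed by 2% at each end, was 500. Array controls (183 probe sets) were left out. Probe sets with a signal of at least 50 on both arrays of at least 1 line and sex were kept (12518 of 18769). log2 signal was fitted in R 4.3.3 with limma 3.58.1, with a mean for each line and sex (16 residual degrees of freedom), on the 16 arrays of 1 sex, or on the 8 arrays of a line and the control (4 residual degrees of freedom), and p-values were adjusted by Benjamini-Hochberg over all kept probe sets. Thresholds were an adjusted p of 0.001 for sex, line and line by sex tests and 0.05 for a line against the control. Signals under 50 have no order; such differences are bounds with the dimmer group raised to 50. The functions were tested on simulated data. Members, lists and tests were chosen with earlier results of these data known. Named with values per array were members called by a line or interaction test or in a line; the rest are given by range. Names and neighbours of genes were read from a RefSeq table of assembly Release 6 plus ISO1 MT. No columns of other comparisons were used. Arrays give no counts, so their number limits precision.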

Additional observations from a re-analysis of the deposited data

Results flagged for a closer look

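Obp44a was singled out because its differences between lines were not the same in females and males by a direct test of line by sex (adjusted p = 9e-04, limma). In esg females differed from the control by 1.02 and males by 0.35 on the log2 scale, and in pyd by -0.22 and 0.37; within single lines the test of the sex difference was not called (adjusted p = 0.12 to 0.99).

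Signal was also found in 4 probe sets outside the comparisons, which name 2 genes each. Both Obp50b and Obp50c probe sets were brighter in males, with medians of 190.2 and 84.4 on male arrays and 28.7 and 25.3 on female arrays. Those that name Obp57d and Cpr57A had medians of 608.4 and 36.5 in males and 299.5 and 16.1 in females. No gene is named from them, and no test was run on them.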

How the results depend on the processing

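The count of members differing between the sexes (29) was 27 to 33 under the alternatives run, and without any 1 array it was 29. Under quantile normalization it was again 29, but Obp56h (adjusted p = 0.45) and Obp84a (0.0034) left it and Obp83cd and Obp83ef entered it. The male minus female values of Obp59a (-0.69), Obp83cd (-1.0), Obp83ef (-0.89) and Obp84a (-0.41) reversed. Without the filter all 48 members were tested, and with the filter at 100 only 28 were, so the range of 27 to 33 has no single denominator. Other counts moved, and the cause was not tested. With log2(signal + 50), members called numbered 12 for line, 3 for line by sex, 2 for line in females, 4 for line in males, 5 in pyd, 5 in crol and 2 in CG10990. With an intensity trend, they were 4 for line by sex, 5 in females, 5 in males, 2 in pyd, 4 in crol and 1 in CG10990. Without the filter they were 0 for line by sex, 0 in females, 0 in males, 1 in mub, 2 in CG9238 and 0 in esg. An analysis of variance on untransformed signal gave 4 for line by sex, 0 in females, 1 in males, 1 in pyd, 2 in crol, 1 in CG10990 and 2 in CG9238. All 32 arrays in 1 fit gave 8 in pyd, 3 in crol, 2 in CG10990, 8 in BG00817 and 1 in esg. Filtering at 100 gave 1 in pyd, and quantile normalization and median centring each gave 1 in esg.

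Replicate numbers are not known to pair samples: deviations of same-numbered arrays correlated at -0.144 to 0.242 (median -0.007), above 0.1 in 7 of 120 pairs of groups. With the replicate block, counts were 0 for line by sex, 0 for line in females, 2 in mub and 1 in esg, and the other counts stayed within 1.5 times.

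Leaving out 1 array gave 5 to 8 members for line, 0 to 1 for line by sex, 0 to 1 in females, 1 to 2 in males, 0 to 3 in pyd, 0 to 6 in mub, 0 to 2 in crol, 0 to 3 in CG10990, 0 to 5 in CG9238, 0 to 5 in BG00817 and 0 to 5 in esg. Without 1 array of a group the remaining one is assumed to vary like the other groups. Of 8 gene results from the line and line by sex tests, 196 of 256 refits without 1 array kept their call; of 17 calls in single lines, 53 of 136 did. Signals under 50 carry no order, which limits the seminal genes in females and the sizes given for Obp99d.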
